A study of Mus musculus with 2 samples.

Results

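The genes described here are *Foxl2*, its divergent neighbour *Foxl2os*, *Runx1*, *Irx3*, *Irx5* and *Cdkn1b*, a listed set of regulators of pre-granulosa cells, the supporting cells of the foetal ovary. They are 6 of the 42422 genes in the table of somatic cells, found there by matching their symbols to Ensembl identifiers, and each matched exactly 1 row. RNA was counted by 3′ RNA-seq in the GFP-negative cells sorted from mouse gonads that carried an Oct4-eGFP transgene, which is active in germ cells. The embryos came from Swiss females and Oct4-eGFP males on the 129svJT2 background, their genotype is recorded as WT, and several gonads were pooled for each library. Gonads with the mesonephros attached were taken at E12.5, and the mesonephros was removed before sorting. The 40 libraries form 10 groups of 4. XX and XY cells were sorted before culture and after 24 h or 72 h of culture with DMSO, the solvent control, and XY cells also after 24 h or 72 h with 500 nM BGJ398, an inhibitor of FGF receptors (FGFRi), or with 500 nM PD0325901, an inhibitor of MEK1/2 (MEKi).

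Libraries were amplified in 2 pools of 20. The first pool held the cells before culture, the DMSO groups at 24 h and MEKi at 24 h, and the second held FGFRi at 24 h and every group at 72 h. Differences between XX and XY at a given time, changes from before culture to 24 h, MEKi at 24 h and all comparisons within 72 h therefore lie within a pool. For changes to 72 h and for FGFRi at 24 h, pool and condition cannot be told apart. Total counts were 1380707 to 4836550 per library. As a check of the labels, XX libraries held 1090 to 2427 counts of *Xist*, the RNA of the inactive X chromosome, where XY libraries held at most 14. *Ddx3y* on the Y chromosome was the other way round, with at most 3 counts in XX and 65 to 253 in XY libraries, so each library fitted its label. Of 12 genes known from Sertoli cells, all 12 were higher in XY cells before culture, and 9 other genes known from ovarian supporting cells that could be tested were all higher in XX cells. By the same test, described below, 17.3% of all genes differed in either direction and 8.01% were higher in XX cells. The lists were chosen with earlier results of these data known, so these counts are not independent evidence. The sorted cells were nevertheless a mixture. Summed germ cell genes had 13.8 to 297 CPM (counts per 1000000, after TMM scaling of the library totals), macrophage genes 5.98 to 108 CPM and erythroid genes 133 to 15700 CPM over all libraries.

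Supporting cells of the early gonad can become Sertoli cells or pre-granulosa cells. FOXL2 is a forkhead transcription factor of the granulosa lineage that opposes the Sertoli programme, and *Foxl2os* is a long non-coding RNA that starts beside it on the other strand. RUNX1 is a transcription factor, known from blood formation, that is made in supporting cells of both sexes at first and later in those of the ovary, where it acts together with FOXL2. IRX3 and IRX5 are homeodomain proteins of the Iroquois family that are made in pre-granulosa cells and are needed for healthy follicles. Germ cells make their RNA too. The study names both among genes higher in XX than in XY germ cells, and reports both raised by MEKi in XY germ cells. *Cdkn1b* encodes p27, an inhibitor of cyclin-dependent kinases that holds cells out of the cell cycle and marks pre-granulosa cells, most of which do not divide in the foetal ovary.

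The start sites are shown first, that of *Foxl2* and *Foxl2os* because both genes are transcribed from it, and those of *Runx1*, *Irx3* and *Irx5* because these genes were high in XX and low in XY cells at each time. All positions are on GRCm39 with GENCODE genes. *Foxl2* (ENSMUSG00000050397.4) is a gene of 1 exon at chr9:98837341-98840596 on the forward strand, and *Foxl2os* (ENSMUSG00000097072.7) lies at chr9:98831222-98837363 on the reverse strand, so that the 2 start sites are 22 bases apart and the transcripts overlap at their 5′ ends. The line below gives chr9:98837214-98837363, forward strand, with the 23 bases that both genes transcribe in capitals.
Foxl2 and Foxl2os start: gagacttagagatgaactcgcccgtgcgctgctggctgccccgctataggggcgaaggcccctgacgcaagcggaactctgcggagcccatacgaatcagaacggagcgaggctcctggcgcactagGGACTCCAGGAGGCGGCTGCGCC
*Runx1* (ENSMUSG00000022952.17) lies at chr16:92398354-92623037 on the reverse strand. The 250 bases before the start of its canonical transcript, chr16:92623038-92623287, are given on the reverse strand, with a RUNX match in capitals. *Runx1* is known to have more than a single promoter, and reads from the 3′ end cannot tell which start was used.
Runx1 upstream: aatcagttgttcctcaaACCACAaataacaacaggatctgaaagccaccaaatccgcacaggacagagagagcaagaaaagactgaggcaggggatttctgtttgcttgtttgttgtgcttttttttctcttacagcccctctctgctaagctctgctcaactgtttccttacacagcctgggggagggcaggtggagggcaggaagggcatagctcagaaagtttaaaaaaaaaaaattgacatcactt
*Irx3* (ENSMUSG00000031734.13) at chr8:92525153-92528695 on the reverse strand and *Irx5* (ENSMUSG00000031737.11) at chr8:93084253-93102914 on the forward strand are neighbours in a cluster of Iroquois genes, 556 kb apart. Their upstream windows are chr8:92528696-92528945, reverse strand, and chr8:93084003-93084252, forward strand, each of 250 bases.
Irx3 upstream: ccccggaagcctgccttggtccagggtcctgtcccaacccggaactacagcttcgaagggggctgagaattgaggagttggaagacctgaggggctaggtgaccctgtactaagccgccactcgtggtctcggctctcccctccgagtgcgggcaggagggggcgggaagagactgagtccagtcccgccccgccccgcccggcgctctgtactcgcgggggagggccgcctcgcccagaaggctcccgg
Irx5 upstream: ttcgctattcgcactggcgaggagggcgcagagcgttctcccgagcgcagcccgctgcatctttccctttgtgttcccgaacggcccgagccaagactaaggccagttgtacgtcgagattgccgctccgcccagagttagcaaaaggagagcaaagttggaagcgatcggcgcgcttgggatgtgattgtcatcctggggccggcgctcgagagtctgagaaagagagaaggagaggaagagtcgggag
*Cdkn1b* (ENSMUSG00000003031.14) lies at chr6:134897364-134902476 on the forward strand.

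The *Runx1* window differed from the rest in composition. It was 44.8% G or C and held 1 CpG, where the windows of the other 5 genes were 59.6% to 71.6% G or C with 19 to 28 CpGs, and the medians over 21770 protein-coding genes were 53.2% and 8. Motifs were searched on both strands as a forkhead motif GTAAACA, a RUNX motif TGTGGT, an NR5A1 motif AAGGTCA and a TCF/LEF motif CTTTGAT, none of which overlaps another. The only match in the 6 windows was the RUNX motif, 233 bases before the start of *Runx1* on the opposite strand. Of all protein-coding promoters of this length, 13% held the RUNX motif, 2.7% the forkhead motif, 3.9% the NR5A1 motif and 2.9% the TCF/LEF motif. A match is a run of letters and was not tested for binding.

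The level of *Foxl2* differed between all 3 times in both sexes. In XX cells it was at 48.3, 52.1, 88.3 and 104 CPM before culture, at 129, 143, 157 and 180 CPM after 24 h, and at 188, 220, 245 and 274 CPM after 72 h with DMSO. The 3 sets of XX libraries did not overlap. In XY cells it was at 0.569 to 1.54 CPM before culture, which was 9 counts over 4 libraries, at 1.94, 2.5, 4.21 and 6.96 CPM after 24 h, and at 13.3, 17.9, 18.5 and 21.7 CPM after 72 h with DMSO. These sets did not overlap either, and the highest XY library in any group, 32.4 CPM with MEKi at 72 h, lay below the lowest XX library.

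**Figure D1:**
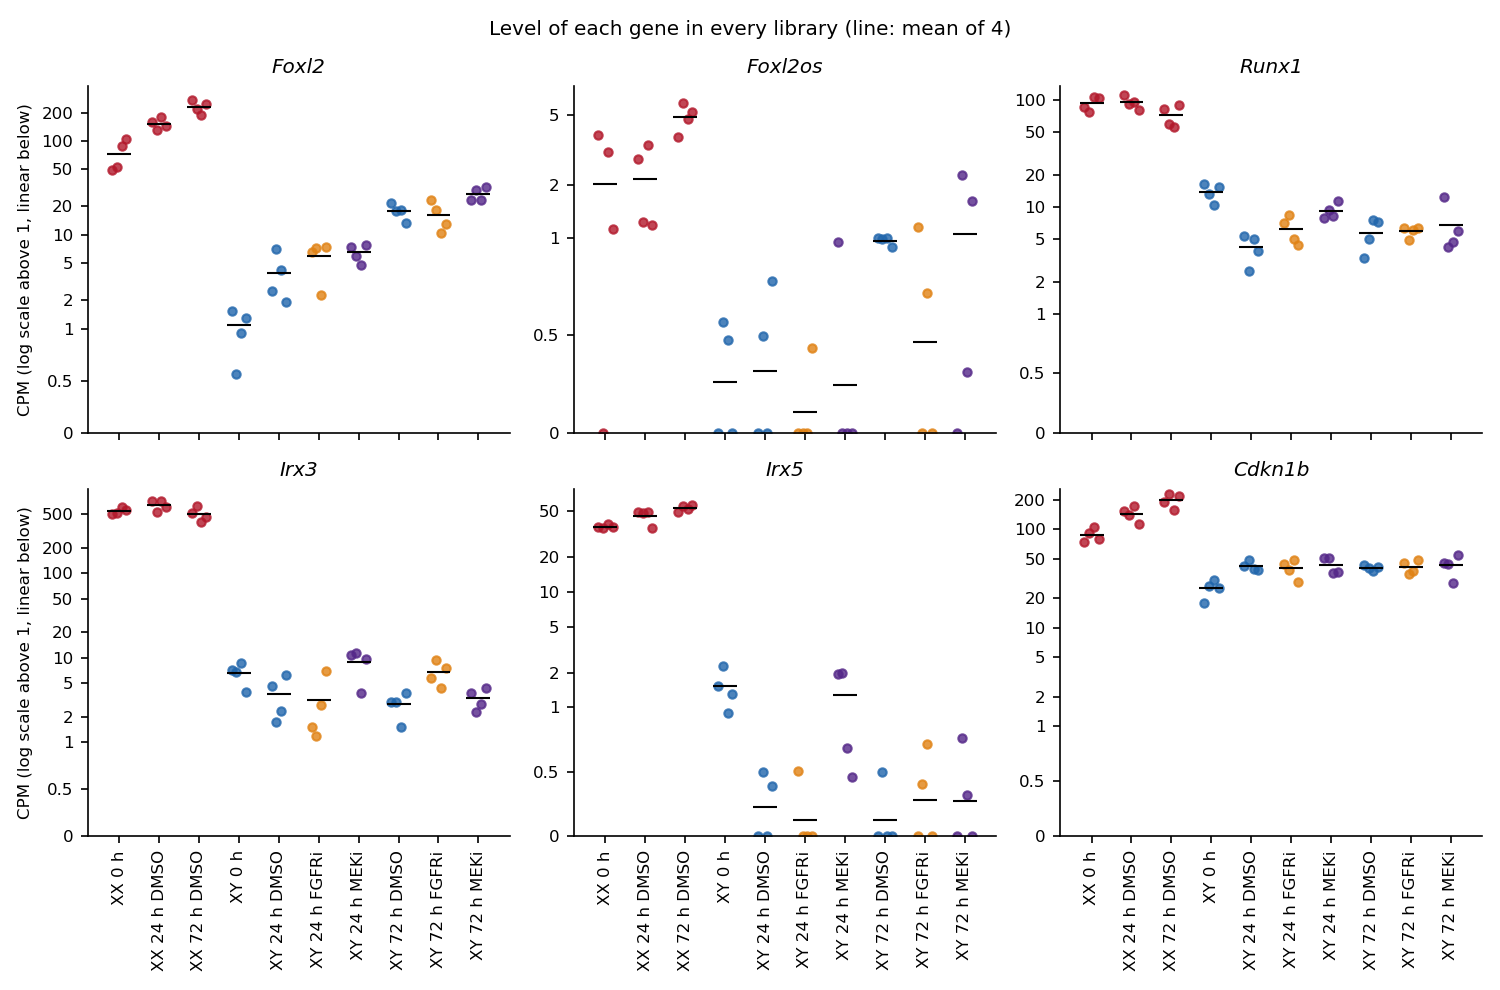
CPM of the 6 genes in each of the 40 libraries, on an axis that is logarithmic above 1 CPM and linear below, with the mean of 4 libraries as a line, XX in red and XY in blue (DMSO or uncultured), orange (FGFRi) and purple (MEKi). For *Foxl2*, *Runx1*, *Irx3*, *Irx5* and *Cdkn1b* every XX library lies above every XY library, and *Foxl2* has no overlap between the times in either sex with DMSO.

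*Foxl2os* was counted at a low level and did not pass the filter on low counts, so the table-wide test was run on 5 of the 6 genes. XX libraries had 0, 3, 4 and 9 counts before culture, 3, 5, 7 and 8 at 24 h, and 8, 10, 10 and 16 at 72 h. XY libraries had 0 to 6 counts, in all groups. The level in XX cells at 72 h was 4.91 ± 0.901 CPM (SD, n = 4) against 0.986 ± 0.0227 CPM in XY cells with DMSO, and these libraries did not overlap, nor did those of the sexes at 24 h. The XY SD comes from 2 or 3 counts a library and understates the error. Exact 95% limits for counting error on the pooled XY level were 0.451 to 1.87 CPM. A ratio of pooled counts, with exact 95% limits that cover counting error only, was 7.58 (1.78 to 67.9) between XX and XY before culture, 7.32 (2.5 to 29.1) at 24 h and 4.9 (2.36 to 11.4) at 72 h. A two-sided exact permutation test over 4 against 4 libraries gave p = 0.143, 0.0286 and 0.0286 at these times, where 0.0286 is the smallest value possible, and 0.25, 0.0801 and 0.0801 after Benjamini-Hochberg adjustment over 14 comparisons. Without the filter on low counts, edgeR's quasi-likelihood test gave an FDR of 0.085, 0.0271 and 0.0328.

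Counts of *Foxl2os* were also set against those of *Foxl2* in the same library. Within XX libraries it was 0% to 7.96% of the *Foxl2* count before culture, 0.83% to 1.88% at 24 h and 1.37% to 2.69% at 72 h. In XY cells at 72 h with DMSO it was 4.62% to 7.14%, from 2 or 3 counts a library. In XY cells before culture it was 0% to 100%, and at 24 h with DMSO 0% to 40%, from 2 and 4 counts of *Foxl2os* over 4 libraries against 9 and 62 of *Foxl2*. Counts from the 3′ end are not divided by transcript length, so these ratios serve to compare libraries and not the output of the genes.

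*Runx1* was high in XX cells at all times. XX libraries had 76.4, 86.3, 104 and 106 CPM before culture, 80.6, 92.1, 95.7 and 111 CPM at 24 h, and 55.4, 59.1, 82.2 and 88.8 CPM at 72 h, and the ranges of all 3 times overlapped. XY libraries had 10.5, 13.1, 15.2 and 16.4 CPM before culture, 2.49, 3.89, 4.98 and 5.35 CPM at 24 h, and 3.33, 4.97, 7.14 and 7.48 CPM at 72 h with DMSO. XY cells before culture therefore held more *Runx1* than any XY library with DMSO later on, at 14.8% of the XX level, against 4.4% at 24 h and 8.03% at 72 h.

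*Irx3* was abundant in XX cells and at a low level in XY cells. XX libraries had 507, 520, 567 and 607 CPM before culture, 529, 612, 719 and 723 CPM at 24 h, and 407, 465, 513 and 618 CPM at 72 h. XY libraries had 3.91, 6.83, 7.18 and 8.61 CPM before culture, 1.74, 2.3, 4.63 and 6.22 CPM at 24 h, and 1.5, 2.98, 3 and 3.81 CPM at 72 h with DMSO. The XX ranges overlapped across time, and the XY means were 0.563% to 1.21% of the XX mean of the same time.

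*Irx5* had a narrow spread in XX cells, at 35.3, 36.2, 36.3 and 38.7 CPM before culture, 35.6, 48, 48.7 and 49.3 CPM at 24 h, and 49.3, 52.2, 54.9 and 55.9 CPM at 72 h. XY libraries had 2 to 4 counts each before culture, 3 counts over all 4 libraries at 24 h, and 1 count over all 4 at 72 h with DMSO. Every XY library before culture had a count, at 0.956 to 2.28 CPM, and all of them lay above the highest library at 24 h and at 72 h, both at 0.497 CPM. Against the *Irx3* count of the same library, the *Irx5* count in XX cells was 6.38% to 7.17% before culture, 5.81% to 9.07% at 24 h and 8.88% to 12.8% at 72 h, with the last range apart from the first.

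*Cdkn1b* was found in both sexes. XX libraries had 74.7, 79.2, 92.3 and 106 CPM before culture, 113, 138, 152 and 170 CPM at 24 h, and 156, 188, 219 and 226 CPM at 72 h. XY libraries had 18, 25.2, 26.7 and 30.6 CPM before culture, 38.1, 39.7, 42.1 and 48.2 CPM at 24 h, and 37.4, 40.8, 41.4 and 43 CPM at 72 h with DMSO. The XY ranges at 24 h and 72 h overlapped and lay above that before culture, and the XX ranges did the same. The XY means were 20.6% to 29.3% of the XX means. In bulk RNA, fewer cells of a type and less RNA per cell cannot be told apart, here and in all results that follow.

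The comparison of XX with XY cells asked how far the genes mark the ovarian side before and during culture. All 5 genes tested were called higher in XX cells at each time, at a Benjamini-Hochberg FDR below 0.05 over 15125 genes and a fold change of at least 1.5 in edgeR's quasi-likelihood test. The background was 8.01% of genes called higher in XX before culture, 9.24% at 24 h and 9.47% at 72 h, and the genes had been listed as ovarian regulators, so their direction is not independent evidence. Before culture the log2 fold change was 6.38 for *Irx3* (standard error 0.219, FDR 7.79e-30), 5.97 for *Foxl2* (standard error 0.365, FDR 1.75e-19) and 4.57 for *Irx5* (standard error 0.331, FDR 9.08e-17). For the 2 genes with a clear level in XY cells it was smaller, at 2.75 for *Runx1* (standard error 0.205, FDR 2.88e-16) and 1.79 for *Cdkn1b* (standard error 0.179, FDR 6.44e-12).

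The size of the difference in culture is given here, and the tests of its change follow the time courses. At 24 h and 72 h the log2 fold change of *Foxl2* was 5.16 and 3.68, that of *Runx1* 4.49 and 3.67, that of *Irx3* 7.57 and 7.43, and that of *Cdkn1b* 1.76 and 2.27, with standard errors of 0.154 to 0.245 and FDRs of 5.79e-14 or lower by the same test. As folds, *Foxl2* went from 62.7 before culture to 35.9 and 12.8, and *Runx1* from 6.71 to 22.5 and 12.7. *Irx5* had so few counts in XY cells that the ratio of pooled counts is given, which was 24.6 before culture (95% limits for counting error 13.9 to 48), 223 (75.8 to 1080) at 24 h and 481 (86 to 19100) at 72 h, where the XY side rests on 12, 3 and 1 counts.

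**Figure D2:**
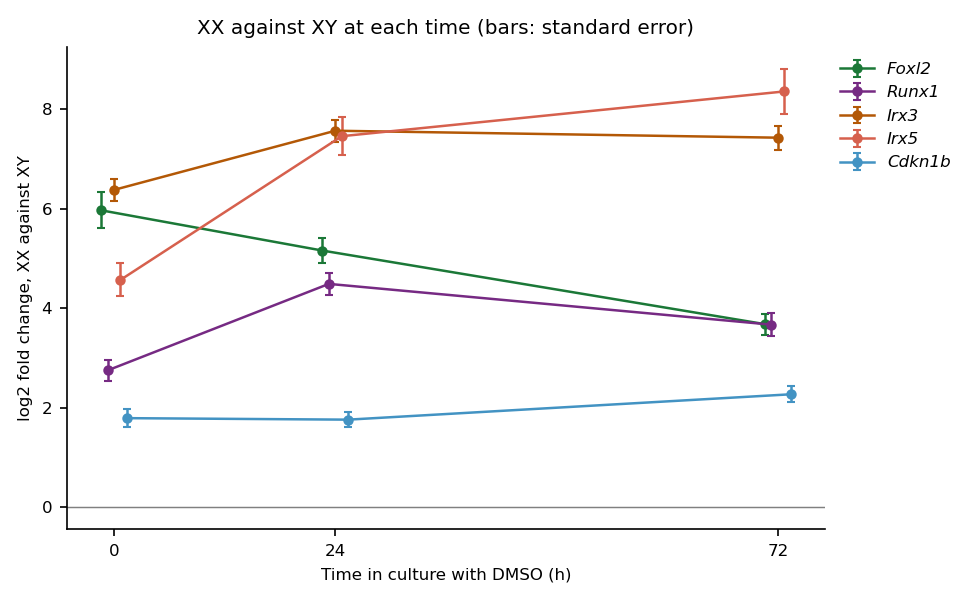
Log2 fold change of XX against XY cells, with its standard error, before culture and after 24 h and 72 h with DMSO, for the 5 genes tested. The difference in *Foxl2* falls from 5.97 to 3.68, and that in *Cdkn1b* stays between 1.76 and 2.27. Those in *Runx1*, *Irx3* and *Irx5* are larger at 24 h and 72 h than before culture. The change to 24 h was called for *Runx1* and *Irx5* and not for *Irx3*.

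In XX culture, *Foxl2* and *Cdkn1b* rose and the other 3 genes were not called. From before culture to 24 h, *Foxl2* rose 2.09-fold (log2 1.06, standard error 0.181, FDR 2.04e-05) and *Cdkn1b* 1.64-fold (log2 0.71, standard error 0.150, FDR 0.000515), which made 2 of 5 called where 7.73% of all genes were called in either direction. From before culture to 72 h, *Foxl2* rose 3.18-fold (FDR 1.54e-10) and *Cdkn1b* 2.25-fold (FDR 1.26e-08), again 2 of 5, against 18.9% of all genes. *Irx5* did not reach the fold of 1.5 over this span, at log2 0.54 with an FDR of 0.0424 in edgeR's test, although its XX libraries at 72 h all lay above those before culture. *Runx1* and *Irx3* were at log2 −0.39 and −0.14 over the same span, with FDRs of 0.081 and 0.504.

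Between 24 h and 72 h in XX culture, only *Foxl2* was called, 1 of 5 against 8.15% of all genes, at 1.52-fold (log2 0.61, standard error 0.170, FDR 0.0116 in edgeR's test). This call was lost without XX replicate 5 of 24 h (log2 0.53, FDR 0.0604), without XX replicate 11 of 72 h (log2 0.52, FDR 0.0547) and without XX replicate 8 of 72 h, where the fold fell under 1.5 (log2 0.58, FDR 0.0349). DESeq2 gave log2 0.61 with an FDR of 0.0842. *Cdkn1b* had log2 0.46 with an FDR of 0.0257, below the fold required. By limma's voom with quality weights and treat, which tests against a change of 1.5-fold rather than none, the *Foxl2* call was lost as well, and of the changes to 24 h that of *Foxl2* was kept and that of *Cdkn1b* lost.

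In XY culture, *Foxl2* and *Cdkn1b* rose as well, while *Runx1* and *Irx5* fell. From before culture to 24 h, 4 of 5 genes were called, where 14.4% of all genes were. *Runx1* fell by 1.72 on the log2 scale (standard error 0.274, FDR 2.76e-06) and *Irx5* by 2.58 (standard error 0.706, FDR 0.00524), the latter from 12 counts to 3, a ratio of 0.138 (95% limits for counting error 0.0251 to 0.513). *Foxl2* rose by log2 1.87 (standard error 0.567, FDR 0.0119) and *Cdkn1b* by log2 0.74 (standard error 0.182, FDR 0.00175). The *Foxl2* call was lost without XY replicate 3 of the 24 h DMSO group, the highest of its group, at log2 1.47 and an FDR of 0.0911. *Irx3* missed the threshold at log2 −0.96 with an FDR of 0.0532, and met it without XY replicate 6 before culture (log2 −1.17, FDR 0.0263) and without XY replicate 2 (log2 −1.1, FDR 0.04) or 5 (log2 −1.28, FDR 0.0141) at 24 h.

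From 24 h to 72 h in XY culture, *Foxl2* rose a further 4.27-fold (log2 2.09, standard error 0.299, FDR 7.97e-07), the only call among 5 against 7.27% of all genes. Over the whole 72 h it rose 15.6-fold (log2 3.96, standard error 0.451, FDR 4.51e-10), and all 5 genes were called, 2 higher and 3 lower, against 22.8% of all genes. *Cdkn1b* was 1.62-fold higher than before culture (log2 0.69, FDR 0.00311), *Runx1* had fallen by 1.31 on the log2 scale (FDR 0.000252), *Irx3* by 1.19 (FDR 0.0245) and *Irx5* from 12 counts to 1, a ratio of 0.074 (0.00173 to 0.5). *Irx3* was no longer called without XY replicate 2 before culture (log2 −1.15, FDR 0.0516), without replicate 5 before culture (log2 −1.04, FDR 0.0787) or without replicate 5 at 72 h (log2 −1.02, FDR 0.0685). *Cdkn1b* fell under the fold required without XY replicate 2 before culture, at log2 0.56. In voom with treat, the calls kept were *Runx1* to 24 h and *Foxl2* from 24 h to 72 h and over 72 h.

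Markers of other cells changed over the same time, in both directions. From before culture to 24 h in XY cells, the summed level of 12 Sertoli genes went from 2120 to 2370 CPM to 985 to 1650 CPM, with 10 of 12 lower, and that of 7 erythroid genes from 12300 to 15700 CPM to 2720 to 7020 CPM. Macrophage genes went from 51.3 to 59.7 CPM to 21.8 to 47.4 CPM, and other blood cell genes from 23.9 to 42.6 CPM to 17.9 to 45.5 CPM. The part of these cells in the fall of *Runx1*, which blood cells also make, was not tested. In XX cells erythroid genes went from 7320 to 13300 CPM to 915 to 2180 CPM and macrophage genes from 36.4 to 57 CPM to 16.3 to 20.3 CPM. Other lists were higher at 24 h, as *Foxl2* and *Cdkn1b* were. Genes of the surface epithelium went from 90.3 to 144 CPM to 258 to 348 CPM in XY cells, with 4 of the 4 tested higher, and from 187 to 240 CPM to 405 to 528 CPM in XX cells, with 3 of 4 higher. Foetal Leydig cell genes went from 154 to 302 CPM to 634 to 941 CPM in XY cells, with 3 of 4 higher, and from 70.1 to 114 CPM to 152 to 194 CPM in XX cells, with 2 of 4 higher and 1 lower. Germ cell genes went from 40.2 to 48 CPM to 86.1 to 182 CPM in XX cells, with 4 of 6 higher. The part of these cells in the rise of *Foxl2* and *Cdkn1b* was not tested.

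**Figure D3:**
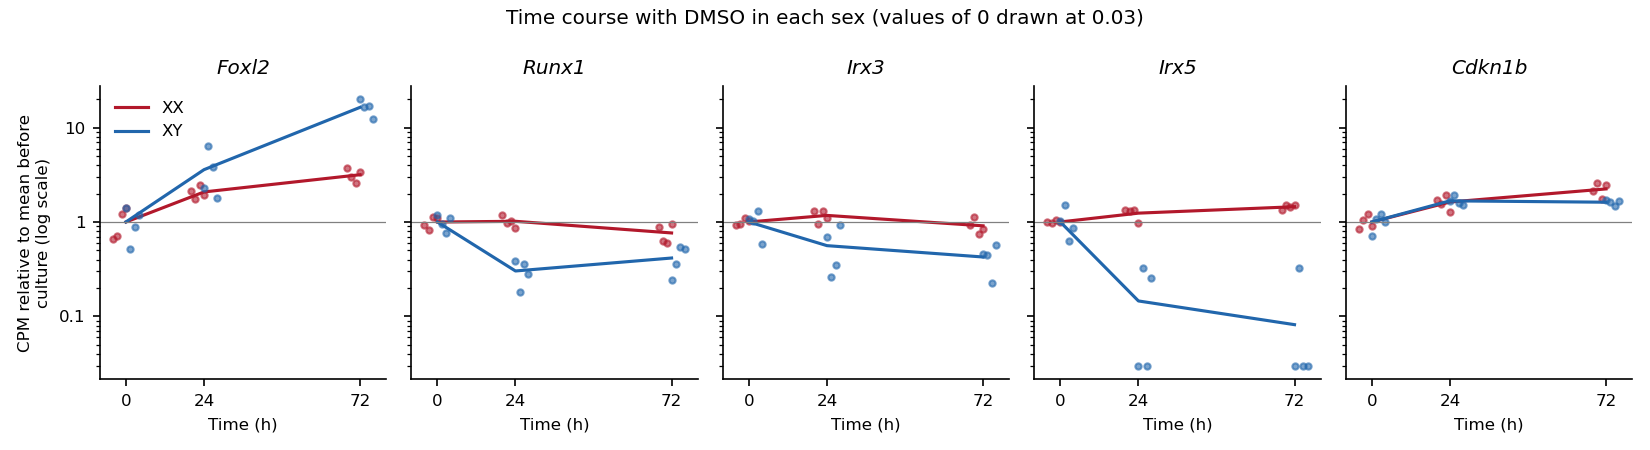
Level of 5 genes with DMSO relative to the mean before culture in the same sex, on a log scale, with points for the 4 libraries of each time and lines through the means, XX in red and XY in blue. The *Foxl2* mean rises more steeply in XY than in XX cells, a difference called from 24 h to 72 h and not to 24 h. Its XY level before culture rests on 9 counts. *Runx1* and *Irx5* fall in XY cells, and *Cdkn1b* rises 1.64-fold in XX and 1.67-fold in XY cells to 24 h.

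Whether the sexes changed differently was tested directly, as the XX change minus the XY change. From before culture to 24 h, 2 of 5 genes were called, against 6.2% of all genes. The difference in change was log2 1.75 for *Runx1* (standard error 0.320, FDR 0.000146) and log2 2.89 for *Irx5* (standard error 0.736, FDR 0.00753), both from a fall in XY cells with no called change in XX cells. The *Irx5* call was lost without XY replicate 4 of 24 h (log2 2.34, FDR 0.0513). *Irx3* was at log2 1.2 with an FDR of 0.0564, and met the threshold without XY replicate 6 before culture (log2 1.4, FDR 0.0302), without XX replicate 5 of 24 h (log2 1.28, FDR 0.0398) and without XY replicate 2 (log2 1.32, FDR 0.0463) or 5 (log2 1.5, FDR 0.0172) of 24 h. For *Foxl2* and *Cdkn1b* the FDRs of this difference were 0.551 and 0.974.

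From 24 h to 72 h, *Foxl2* alone was called, 1 of 5 against 2.04% of all genes. Its XX change was smaller than its XY change by 1.49 on the log2 scale (log2 −1.49, standard error 0.347, FDR 0.00781), and since both sexes changed pool between these times, a pool effect common to both cancels in this contrast. *Foxl2os*, its divergent neighbour, had too few counts to show such a difference, with log2 −0.39 and a standard error of 0.945 in the test without a filter. The FDRs of the other 4 genes were 0.315 to 0.961. None of these differences in change, and none of the inhibitor calls below, was called by voom with treat against a change of 1.5-fold.

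The inhibitors were added to XY culture to ask whether blocking FGF receptors or MEK1/2 after sex determination changes the cells. At 24 h *Runx1* and *Irx3* were higher with MEKi, 2 of 5 genes against 3.27% of all genes. *Runx1* had 7.82, 8.22, 9.3 and 11.4 CPM with MEKi against 2.49, 3.89, 4.98 and 5.35 CPM with DMSO, with no overlap (log2 1.12, standard error 0.293, FDR 0.0133 in edgeR's test). *Irx3* had 3.77, 9.57, 10.8 and 11.3 CPM against 1.74, 2.3, 4.63 and 6.22 CPM, with 1 MEKi library inside the DMSO range (log2 1.31, standard error 0.349, FDR 0.0169). *Irx5* had 10 counts against 3, a ratio of 5.63 (95% limits for counting error 1.45 to 31.8), and was not called (log2 2.24, FDR 0.068). Both treated levels remained far from those of XX cells, at 9.69% of the XX mean for *Runx1* and 1.37% for *Irx3*.

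These calls rest on few libraries. *Runx1* was not called without DMSO replicate 3 (log2 0.92, FDR 0.0889) or MEKi replicate 6 (log2 1, FDR 0.0827). *Irx3* was not called without DMSO replicate 3 (log2 1.06, FDR 0.101) or 4 (log2 1.09, FDR 0.103), or without MEKi replicate 1 (log2 1.16, FDR 0.0933), 2 (log2 1.19, FDR 0.0736) or 6 (log2 1.23, FDR 0.0709). *Irx5* met the threshold without DMSO replicate 3 (log2 3.04, FDR 0.0442) or MEKi replicate 4 (log2 2.5, FDR 0.0476). In a fit to only the groups compared, *Runx1* had an FDR of 0.0643 and *Irx3* of 0.1. MEKi replicate 2 was placed by the deposited list of library names rather than by the sample label, and without it *Runx1* was still called (log2 1.12, FDR 0.0321).

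Other cells also differed between these groups. With MEKi at 24 h the 7 germ cell genes summed to 149 to 297 CPM against 54.2 to 90.6 CPM with DMSO, and 4 of the 6 that could be tested rose. Genes of the mesonephric duct and tubules were at 41.4 to 56.2 CPM against 28.3 to 43.5 CPM, with none of 4 called. Macrophage genes were at 5.98 to 18.1 CPM against 21.8 to 47.4 CPM, and endothelial genes at 35.6 to 50.4 CPM against 166 to 249 CPM, with 6 of 6 lower. *Xist*, which marks RNA of XX cells, was at 1.99 to 3.91 CPM against 0.958 to 3.21 CPM, or 0.389% and 0.278% of its XX level. The part of any of these in the *Runx1*, *Irx3* and *Irx5* values was not tested.

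**Figure D4:**
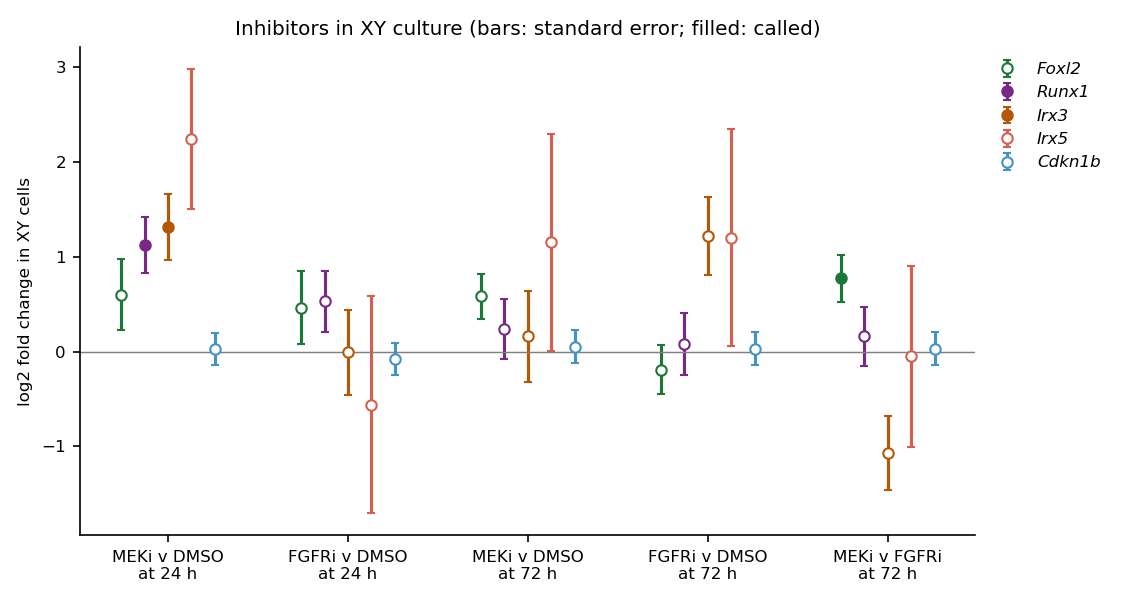
Log2 fold change with its standard error in XY cells for 5 comparisons of MEKi, FGFRi and DMSO, with filled points for calls at an FDR below 0.05 and a fold change of at least 1.5. *Runx1* and *Irx3* are called with MEKi at 24 h and *Foxl2* for MEKi against FGFRi at 72 h, and *Cdkn1b* lies between −0.08 and 0.05 throughout.

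FGFRi at 24 h gave no call among 5 genes, where 3.27% of all genes were called. *Foxl2* had 2.28, 6.57, 7.14 and 7.43 CPM, *Runx1* 4.37, 5.01, 7.07 and 8.34 CPM and *Irx3* 1.19, 1.52, 2.73 and 6.99 CPM, each overlapping the DMSO libraries. *Cdkn1b* was at 28.8 to 48.3 CPM. The FDRs of the 5 genes were 0.41 to 0.994 in edgeR's test.

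At 72 h neither inhibitor gave a call against DMSO, with 6.47% of all genes called for MEKi and 1.8% for FGFRi. *Foxl2* had 23.2, 23.2, 29.8 and 32.4 CPM with MEKi, all above the DMSO libraries at 13.3 to 21.7 CPM, with log2 0.58 (standard error 0.239, FDR 0.107). Without the filter on low counts it met the threshold, at log2 0.59 and an FDR of 0.0369. With FGFRi it had 10.4, 13, 18.2 and 23.6 CPM, on both sides of the DMSO libraries. The XX libraries of that time had 188 to 274 CPM, so the MEKi mean was 11.7% of the XX mean, the DMSO mean 7.7% and the FGFRi mean 7.04%. Between MEKi and DMSO at 72 h, genes of the surface epithelium were at 427 to 461 CPM against 237 to 315 CPM, with 3 of 4 higher, and foetal Leydig cell genes at 816 to 1280 CPM against 395 to 600 CPM, with 3 of 4 higher. Sertoli genes were at 566 to 760 CPM against 803 to 1200 CPM, with 6 of 12 lower, and endothelial genes at 27.6 to 41.7 CPM against 57.1 to 117 CPM, with 5 of 6 lower. The part of these cells in the *Foxl2* values was not tested.

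For *Irx3* at 72 h the FGFRi libraries stood apart instead. It had 4.3, 5.76, 7.55 and 9.32 CPM with FGFRi, all above the DMSO libraries at 1.5 to 3.81 CPM, with log2 1.22 (standard error 0.411, FDR 0.102), and was called only without the filter on low counts, at log2 1.25 and an FDR of 0.00948. With MEKi it had 2.29, 2.83, 3.79 and 4.31 CPM. *Xist* was at 2.84 to 5.18 CPM with FGFRi, 0 to 2.33 CPM with DMSO and 0.314 to 0.948 CPM with MEKi, and mesonephric genes were at 34.4 to 63, 20.5 to 42.3 and 31.7 to 45.8 CPM. As a share of the XX level, *Irx3* was at 1.34% with FGFRi, 0.563% with DMSO and 0.66% with MEKi, and *Xist* at 0.448%, 0.163% and 0.072%. The part of XX or mesonephric RNA in the *Irx3* values was not tested.

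Set directly against each other at 72 h, MEKi had more *Foxl2* than FGFRi, 1.70-fold (log2 0.77, standard error 0.244, FDR 0.0334 in edgeR's test), 1 of 5 genes against 6.43% of all genes. The highest FGFRi library, 23.6 CPM, lay inside the MEKi range. The call was lost without FGFRi replicate 5 (log2 0.58, FDR 0.198) or 6 (log2 0.67, FDR 0.0956) and without MEKi replicate 3 (log2 0.70, FDR 0.101) or 5 (log2 0.68, FDR 0.103), and DESeq2 gave an FDR of 0.0714. In the same comparison 10 of 12 Sertoli genes were lower with MEKi, at 566 to 760 CPM summed against 1090 to 1900 CPM, and none of 6 genes of the early gonad was called. Of the 9 other genes of ovarian supporting cells that could be tested, 1 was higher and 3 were lower with MEKi. The part of Sertoli or other cells in the *Foxl2* values was not tested. *Irx3* was at log2 −1.07 with an FDR of 0.0768, past the threshold in DESeq2 (log2 −1.08, FDR 0.0462) and without the filter on low counts (log2 −1.08, FDR 0.0128).

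Ordered by mean level over the 10 groups, the 3 XX groups stood above every XY group for each gene. For *Foxl2* the XX order was 72 h, 24 h and before culture, and then came MEKi, DMSO and FGFRi at 72 h, MEKi, FGFRi and DMSO at 24 h, and XY before culture. Neighbours in this order overlapped only between DMSO and FGFRi at 72 h and among the 3 XY groups of 24 h. For *Runx1* and *Irx3* all neighbours overlapped apart from the step between the sexes. *Runx1* was highest among XY groups before culture (13.8 ± 2.59 CPM, SD, n = 4), followed by MEKi at 24 h (9.19 ± 1.6 CPM), and lowest with DMSO at 24 h (4.18 ± 1.29 CPM). *Irx3* was highest among XY groups with MEKi at 24 h (8.85 ± 3.46 CPM) and lowest with DMSO at 72 h (2.82 ± 0.964 CPM). For *Irx5* the XX order was 72 h, 24 h and before culture, with overlap between the last 2, and the 7 XY groups overlapped in turn. For *Cdkn1b* the 7 XY groups lay between 25.1 and 43.6 CPM, each overlapping the next. For *Foxl2os* XX cells at 72 h did not overlap the next group, XX cells at 24 h, and all other neighbours overlapped. The lowest XX library at 72 h, at 3.76 CPM, lay below the highest XX library before culture, at 3.84 CPM.

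Other members of these families were at a low level. Of the Iroquois family, *Irx1*, *Irx2*, *Irx4* and *Irx6* did not pass the filter, with group means of at most 0.75 CPM. *Runx2* and *Runx3* also did not pass, with group means of at most 1.63 CPM, and *Cbfb*, which encodes the partner protein of all RUNX factors, was at 50.5 CPM in XX and 71.3 CPM in XY cells before culture and stayed under the fold required (log2 −0.49, FDR 0.024 in edgeR's test). Transcripts that overlap the genes on the other strand were few in XY libraries. *Irx3os* had 7 to 56 counts in XX and 0 to 2 in XY libraries, *Crnde*, which overlaps *Irx5*, 2 to 15 and 0 to 3, and *Gm44238*, which overlaps most of *Cdkn1b*, at most 1 in any library.

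Among the other inhibitors of cyclin-dependent kinases, 4 could be tested and 2 were higher in XX cells before culture, where 8.01% of all genes were. *Cdkn1a*, which encodes p21, was at 203 CPM in XX and 20.9 CPM in XY cells (log2 3.29, standard error 0.195, FDR 5.98e-20), and *Cdkn1c*, which encodes p57, at 2240 and 551 CPM (log2 2.02, standard error 0.132, FDR 1.82e-18). Over 72 h in XX culture both fell, *Cdkn1a* by 2.18 on the log2 scale (FDR 8.2e-15) and *Cdkn1c* by 0.89 (FDR 1.86e-07), while *Cdkn1b* rose by log2 1.17. Of 11 genes for cyclins, kinases and the turnover of p27, 1 was called between the sexes before culture, 1 at 24 h and 2 at 72 h. The shares of all genes called in either direction at these times were 17.3%, 19.6% and 20.3%, so these counts do not set the list apart. *Cdk6*, a kinase of the G1 phase, was higher in XX cells at 72 h (148 and 66.4 CPM, log2 1.15, FDR 3.82e-08), and *Skp2*, which marks p27 for degradation, fell over 72 h in XX culture (38.1 to 22.9 CPM, log2 −0.74, FDR 0.000334). Of 8 genes of proliferating cells, 6 were lower in XX than in XY cells before culture, 1 at 24 h and 5 at 72 h, against the same shares of all genes called in either direction.

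Other genes of ovarian supporting cells did not share the course of *Foxl2* in XX culture. Of the 9 that could be tested, 9 were higher in XX cells before culture, 9 at 24 h and 7 at 72 h, with median log2 differences of 2.8, 2.46 and 2.37, and the background shares called in either direction were 17.3%, 19.6% and 20.3% of all genes. Over 72 h in XX culture 4 fell and none rose, against 18.9% of all genes called in either direction. Among those that fell were *Fst*, which encodes follistatin (266 to 82.2 CPM, log2 −1.69, FDR 1.27e-12), and *Wnt4*, a signal of ovarian development (431 to 212 CPM, log2 −1.03, FDR 5.17e-10). Over 72 h in XY culture 5 rose and 3 fell, against 22.8% of all genes called in either direction. *Wnt4* rose from 53.9 to 149 CPM (log2 1.47, FDR 4.47e-13), *Fst* from 1.51 to 9.94 CPM (log2 2.69, FDR 7.88e-07) and *Bmp2* from 11.7 to 39.1 CPM (log2 1.76, FDR 3.21e-08), and *Kitl*, the ligand of KIT, fell from 169 to 74.3 CPM (log2 −1.18, FDR 1.95e-11). With MEKi against DMSO none of the 9 was called at 24 h, and 1 was higher and 1 lower at 72 h, against 3.27% and 6.47% of all genes called. With FGFRi against DMSO 3 were higher and none lower at 24 h, where pool and treatment cannot be told apart. At 72 h with FGFRi 1 was higher and 1 lower. The shares of all genes called with FGFRi were 3.27% and 1.8%.

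Likeness of pattern was measured as Pearson's r between the means of log2 CPM over the 10 groups, among 12980 genes with a mean of at least 5 CPM, as a description with no test. The groups share 2 pools and a common split by sex, which sets most of each r. *Irx3* was most like *Xist* (r = 0.996), *Irx5* (r = 0.993) and *Fam83g* (r = 0.985), and *Irx5* most like *Irx3*, *Runx1* (r = 0.988) and *Xist* (r = 0.987), where a prior count of 0.5 in place of 2 put *Pced1b* (r = 0.983) in the place of *Xist*. *Runx1* was most like *Plekha2* (r = 0.994), *S100a13* (r = 0.989) and *Irx5*. *Foxl2* and *Cdkn1b*, which changed with time in both sexes, had other neighbours, *Rnf130* (r = 0.989), *Ube2j1* (r = 0.986) and *Aldoc* (r = 0.977) for *Foxl2*, and *Wfs1* (r = 0.988), *Cln3* (r = 0.985) and *Soat1* (r = 0.981) for *Cdkn1b*. The measure ignores the size of a difference. *Ube2j1* had group means of 46.6 to 53.7 CPM in XX and 35.7 to 46.5 CPM in XY cells. Those of *Foxl2* were 73.2 to 232 CPM and 1.09 to 27.2 CPM. Between the genes listed here, r was 0.98 to 0.99 among *Runx1*, *Irx3* and *Irx5*, 0.93 between *Foxl2* and *Cdkn1b*, and 0.76 to 0.9 for the remaining pairs. Over the 3 XX groups alone, which are only 3 points, r was −0.8 between *Runx1* and *Irx5*, −0.34 between *Irx3* and *Irx5* and 0.84 between *Runx1* and *Irx3*, and *Irx5* had r = 0.99 with *Foxl2* and r = 1 with *Cdkn1b*.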

How the data were processed

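Somatic cells (GFP-negative) were measured in 40 libraries, 4 in each of 10 groups, placed by the library names in the sample labels and, for 1 MEKi library of 24 h, by the deposited list of names. The deposited values are whole UMI counts per gene, not normalised, which the authors made with scPipe and Rsubread on GRCm39, counting each UMI once over annotated exons. These steps are described for germ cell libraries and were taken to hold here, and whether the somatic counts used strand is not given in the sources used here, so reads of genes that overlap on both strands may be shared. Of 42422 identifiers, 40391 matched GENCODE M39 and held 99.0% of counts.

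Genes were kept with filterByExpr by group (15125), scaled by TMM and fitted with a mean for each group in edgeR 4.0.16 (R 4.3.3, quasi-likelihood test, Benjamini-Hochberg FDR). Calls needed an FDR below 0.05 and a fold change of at least 1.5. Standard errors came from the estimate and its F statistic. Alternatives were voom with quality weights and treat, as in the study's methods (limma 3.58.1), DESeq2 1.42.0, 2 other scalings, 2 other filters, glmTreat, fits to the groups compared, a replicate block and 40 fits that each left out a library. The fitting code was tested on simulated data. The 16 comparisons were the sexes at each time, each sex over time, the difference in change between the sexes, and the inhibitors. The genes named are the 6 members, genes of fixed lists as counts with values of those a result turns on, and the 3 genes most like each member. The members and lists were chosen with earlier results of these data known. Replicates are pools of gonads. Within groups, counts of library pairs differed by more than sampling noise in all 60 pairs (chi-square per degree of freedom 1.96 to 8.47). Intervals from pooled counts are exact and cover counting error only.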

Additional observations from a re-analysis of the deposited data

Results flagged for a closer look

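Within groups of 4, a library was set apart where the share of the group's range taken by its gap to the nearest other was over Dixon's 95% limit, which chance exceeds in about 1 of 20 groups. Of 44 sets with at least 20 counts, 3 had such a library. *Foxl2* with FGFRi at 24 h was at 2.28 CPM in replicate 4 and at 6.57 to 7.43 CPM in the others. *Runx1* with FGFRi at 72 h was at 4.86 CPM in replicate 4 and at 6.09 to 6.33 CPM in the others, and *Irx5* in XX cells at 24 h was at 35.6 CPM in replicate 9 and at 48 to 49.3 CPM in the others.

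The sexes changed differently in 3 results of edgeR's quasi-likelihood test. From before culture to 24 h the XX change exceeded the XY change by log2 1.75 for *Runx1* (FDR 0.000146) and log2 2.89 for *Irx5* (FDR 0.00753), and from 24 h to 72 h the difference for *Foxl2* was log2 −1.49 (FDR 0.00781).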

How the results depend on the processing

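Of 80 pairs of gene and comparison, 36 were called and 42 were called under at least 1 setting, with 0 changes of sign among the 42. Of the 38 never called, 20 changed sign in some setting. The 5 genes tested stayed higher in XX cells at each time under every setting. A filter of 1 CPM in 4 libraries, RLE scaling and scaling by library totals alone kept the number of genes called in each comparison within 1.5 times. Tested against a change of 1.5-fold with edgeR's glmTreat, the number called went from 2 to 0 for XX at 24 h, from 1 to 0 for XX from 24 h to 72 h, from 4 to 2 for XY at 24 h, from 5 to 3 for XY over 72 h, from 1 to 0 for the sex difference in change from 24 h to 72 h, from 2 to 0 for MEKi at 24 h, and from 1 to 0 for MEKi against FGFRi. In voom with treat these counts were 1, 0, 1, 1, 0, 0 and 0, and the sex difference in change to 24 h went from 2 to 0. DESeq2 gave 0 for XX from 24 h to 72 h. Fits to only the groups compared gave 2 for XY at 24 h and 3 for XY over 72 h, where *Foxl2* and *Irx5*, and *Irx3* and *Irx5*, did not pass the filter in those libraries and were not tested, and 0 for MEKi at 24 h. A prior count of 0.5 kept 2 of the 3 genes most like *Irx5*. Without a filter on low counts, MEKi and FGFRi at 72 h had 1 each in place of 0, and MEKi against FGFRi 2 in place of 1. Leaving out a library gave 0 to 1 for XX from 24 h to 72 h, 3 to 5 for XY over 72 h, 1 to 3 for the sex difference in change to 24 h, 0 to 3 for MEKi at 24 h and 0 to 1 for MEKi against FGFRi. Treat tests ask for more than a fold of 1.5 and call fewer genes by construction. The cause of the other shifts was not tested. Fewer than 15 counts of *Irx5* and *Foxl2os* in each XY group limit what could be seen there.

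Replicate numbers are shared between groups, but deviations of same-numbered libraries correlated at −0.16 to 0.12, so they were not treated as pairs. With the replicate number as a block, the number called was 0 for XX from 24 h to 72 h (*Foxl2* log2 0.53, FDR 0.437), 0 for the sex difference in change from 24 h to 72 h (*Foxl2* log2 −1.56, FDR 0.135), 0 for MEKi at 24 h (*Runx1* log2 1.01, FDR 0.0563, *Irx3* log2 1.18, FDR 0.0911) and 0 for MEKi against FGFRi (*Foxl2* log2 0.77, FDR 0.0633), and no other count moved by over 1.5 times.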
